A study of Mus musculus with 22 samples.

Results

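The 31 genes described here encode heat shock proteins, the co-chaperones that work with them in the cytosol and mitochondria, and the transcription factors that switch many of them on. They were taken by gene symbol from a fixed list, chosen with earlier results of these data known. All 31 are among the 24411 genes of both deposited tables. The RNA came from primary neural stem cells grown from the adult mouse hippocampus, which divide in culture and can give rise to neurons and glia. The study asked what happens to these cells when O-GlcNAcylation is lost, a modification in which O-GlcNAc transferase (OGT) puts 1 N-acetylglucosamine sugar on a serine or threonine of proteins inside the cell. The knockdown arm held 5 libraries of cells infected for 3 days with lentivirus encoding an Ogt short hairpin RNA (shOgt), and 6 whose virus encoded a luciferase hairpin (shLuc), a gene that mouse cells lack, with 10 viral particles per cell. The inhibitor arm held 5 libraries of cells kept for 24 h in 12.5 µM OSMI-1, which blocks the OGT enzyme, and 6 of cells that got the same volume of its solvent DMSO (vehicle). All 4 groups grew in the same medium with EGF and bFGF. The labels give no strain or sex, no age beyond adult, and no hairpin sequence.

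Chaperones bind unfolded or partly folded proteins and keep them from clumping. Small heat shock proteins hold such clients without using ATP, J-domain proteins hand them to HSP70, nucleotide exchange factors such as the HSP110 proteins let HSP70 release them, and HSP90 with its co-chaperones matures a set of signalling proteins. HSF1, the main heat shock factor, is held inactive by chaperones and, once freed, binds heat shock elements, which are inverted repeats of the unit GAA, and raises many of these genes together. In other cells, stress raises O-GlcNAc levels, and raised O-GlcNAc has been linked to stress tolerance.

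Values are the deposited normalized read counts, in which reads per gene were divided by a size factor of each library. They carry no gene length, so levels of different genes are set against each other below only per kilobase. Each arm was normalized by itself, and levels are not compared across arms. A log2 fold change is treated over control on the log2(normalized count + 1) scale, given with its standard error, and adjusted p-values are from limma over all genes tested in an arm, called below 0.05. A gene is said to rise or fall only where it was called. The hairpin libraries held between 7.22 and 13.2 M reads and the OSMI-1 and vehicle libraries between 4.52 and 12.8 M. In a principal component analysis of each arm, component 2 set shLuc 1 and vehicle 1 apart, and component 3 set shOgt 3, shLuc 3 and OSMI-1 5 apart. OSMI-1 4 was the deepest library of its arm, in which no other exceeded 5.93 M reads. The ribosomal precursor Rn45s accounted for 0.921 to 1.25% of the reads of hairpin libraries but for 4.81 to 14.2% of those of the inhibitor arm, where the range over OSMI-1 libraries (6.69 to 10.5%) lay inside that over vehicle libraries. The nuclear noncoding RNA Malat1 was at 46676 ± 10849 in OSMI-1 and 16669 ± 1299 in vehicle libraries (SD, n = 5 and 6; 1.46 ± 0.10, adjusted p = 2.3e-10), with no overlap. After knockdown Malat1 also rose, with overlap (7029.8 ± 2983 in shOgt and 4384 ± 299 in shLuc libraries, 0.60 ± 0.16, adjusted p = 0.007). Whether this shift bears on the heat shock genes was not tested. Nothing in the labels states that the libraries within a group are separate cultures or animals, so p-values speak of the spread between these samples alone, which may be technical. Fewer cells of a type and less RNA per cell cannot be told apart in such bulk samples. Ogt itself was at 401, 418, 349, 430.0 and 524 in shOgt libraries, against 737 (lowest), 826 (median) and 1004 (highest) in shLuc libraries (-0.98 ± 0.11, adjusted p = 1.1e-06), with no overlap. Its mRNA rose after OSMI-1, to 599.9 ± 42.5, against 455 ± 37.6 in vehicle libraries (SD, n = 5 and 6; 0.40 ± 0.08, adjusted p = 0.001).

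After knockdown, 11 of the 30 heat shock genes that passed the filter on low counts were called. Of these, 4 rose (Hspb1, Cryab, Hspa4l and Dnajb4) and 7 fell (Stip1, Hspa9, Hspa4, Hsf1, Hsph1, Hspd1 and Hspa8). Over all 12136 genes tested, 31.8% were called, 15.4% as higher and 16.4% as lower, so the share of heat shock genes called was near that background. After OSMI-1, 9 of 29 were called. Only Hsph1 rose, and 8 fell (Hspb6, Hspb8, Bag3, Hspa4, Cryab, Hspa14, Hspd1 and Stip1). Over all 11349 genes tested in that arm, 24.8% were called, 11.6% as higher and 13.2% as lower. The summed level of 12 neural stem cell markers, none at 0 in all libraries, also stood lower in this arm, at 18428 to 20014 in OSMI-1 and 23281 to 27769 in vehicle libraries, with 1 of 9 tested markers higher and 3 lower. After knockdown that sum was 34791 to 40394 in shOgt and 38836 to 43769 in shLuc libraries, with overlap. There, 1 of 10 tested markers was higher and 3 lower. The sum of 6 ependymal and choroid plexus markers was 71.6 to 109 in OSMI-1 and 134 to 207 in vehicle libraries, with 1 of 2 tested markers lower and Tmem212 at 0 in all libraries. The sum of 8 neuron markers was 2132 to 2994 in OSMI-1 and 1785 to 2303 in vehicle libraries. Of 4 tested neuron markers, 1 was higher and 3 lower after OSMI-1, and 2 higher and 1 lower after knockdown. The part of these cell types in the falls was not tested. The libraries of the groups did not overlap for 8 of the 30 genes after knockdown, where 18.8% of all genes tested did not overlap, and for 4 of the 29 after OSMI-1, where 14.0% did not. The median log2 fold change of the heat shock genes was -0.01 after knockdown, against 0.01 for all genes, and -0.05 after OSMI-1, against 0.00 for all genes. The genes did not move as a block in either arm: the fold changes ran from -0.62 (Stip1) to 1.46 (Hspb1) after knockdown and from -0.71 (Hspb6) to 0.58 (Hspa1a, not called) after OSMI-1. Without the libraries that stood apart, 5 rose and 6 fell after knockdown, and 2 rose and 5 fell after OSMI-1. Hspa1b passed the filter in neither arm and Hspa12a only in the knockdown arm.

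**Figure D1:**
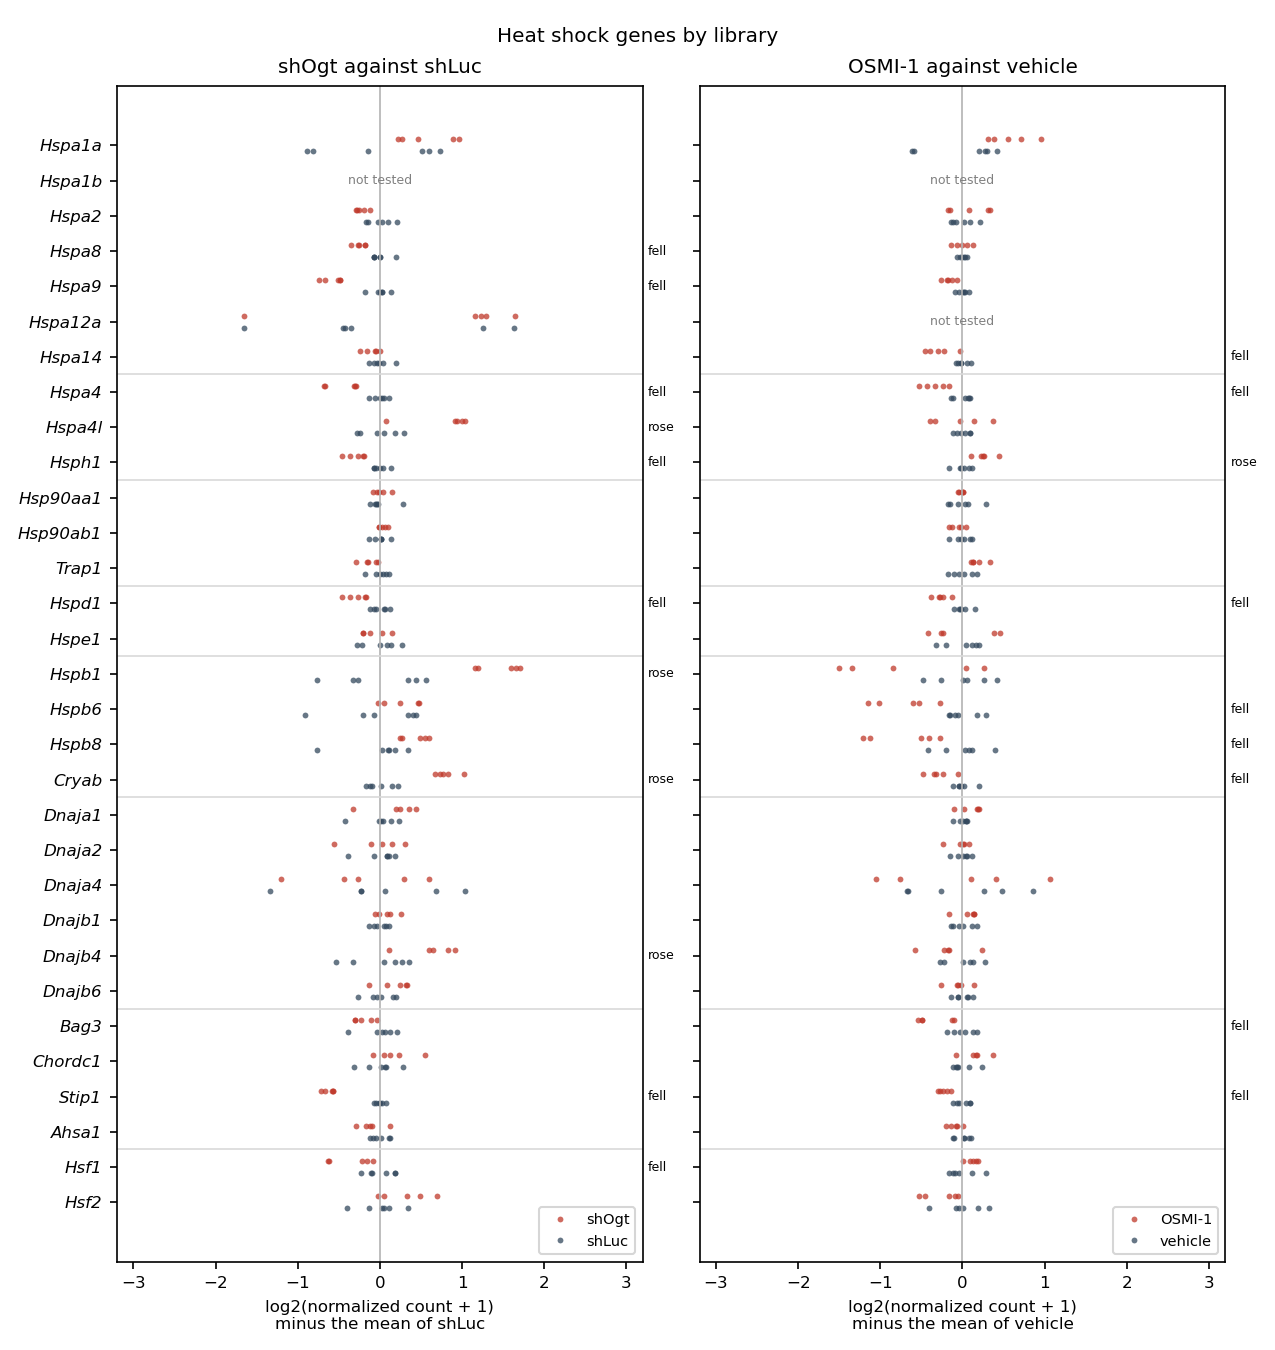
Each point is 1 library, plotted as its log2(normalized count + 1) minus the mean of the control group of that arm; shOgt and OSMI-1 libraries are red, shLuc and vehicle libraries dark. Genes run down the page by role, with calls at the right edge of each panel; the red points of Cryab and Hspb1 lie to the right of all dark points in the knockdown panel, whereas those of Hspb6 lie to the left in the OSMI-1 panel.

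The small heat shock proteins moved differently in the arms: 2 of 4 rose and none fell after knockdown, whereas 3 of 4 fell and none rose after OSMI-1. Over all genes tested, 15.4% rose and 16.4% fell after knockdown, and 11.6% rose and 13.2% fell after OSMI-1. With 4 genes, these counts cannot be set apart from those shares. Cryab encodes alpha-B-crystallin, a holdase of glia, muscle and lens, and lies on GRCm38 chromosome 9, 50751325 to 50756636, plus strand. It was at 4489, 3518, 3782, 3952 and 3676 in shOgt libraries, against 1978 (lowest), 2158 (median) and 2580.0 (highest) in shLuc libraries. Every shOgt library lay above every shLuc library (0.81 ± 0.08, adjusted p = 4.5e-07). After OSMI-1, Cryab was at 855, 936, 1017, 1153 and 952, against 1105 (lowest), 1170.0 (median) and 1367 (highest) in vehicle libraries. It fell (-0.29 ± 0.08, adjusted p = 0.0093), although 1 OSMI-1 library, at 1153, lay inside the vehicle range. Cryab is also a gene of oligodendrocytes, and the summed level of 9 oligodendrocyte lineage markers lay between 10014 and 11543 in shOgt libraries, against 17784 to 20743 in shLuc libraries, with 3 of 4 tested markers lower, none higher and Mog at 0 in all libraries. In the inhibitor arm that sum was 10944 to 14664 in OSMI-1 and 9718 to 12284 in vehicle libraries, with 1 marker higher (Olig1) and 1 lower (Mbp) of 5. In shOgt libraries Cryab stood higher and that sum lower than in shLuc libraries. The summed level of 8 astrocyte markers, none at 0 in all libraries, ran over 7771 to 9119 in shOgt and 7300.3 to 7856 in shLuc libraries, with 1 of 7 tested markers higher and 1 lower. In the inhibitor arm it ran over 3686 to 4196 in OSMI-1 and 3863 to 4254 in vehicle libraries, with 2 of 6 higher and 1 lower. The part of either cell type in the values of Cryab was not tested.

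Hspb1 encodes HSP27, a small heat shock protein that also binds actin and rises with stress, and lies on chromosome 5, 135887919 to 135889563, plus strand. It was low, at 92.5, 64.1, 88.9, 63.0 and 85.3 in shOgt libraries, against 15.9 (lowest), 29.1 (median) and 41.2 (highest) in shLuc libraries. All shOgt libraries lay above all shLuc libraries, and the rise was the largest of the 31 genes (1.46 ± 0.28, adjusted p = 0.00045). After OSMI-1 Hspb1 was at 25.5, 9.12, 13.3, 29.8 and 8.02, against 17.4 (lowest), 25.1 (median) and 33.5 (highest) in vehicle libraries, with overlap and no call (-0.68 ± 0.34, adjusted p = 0.16). Hspb1 rests on few reads, 559 in the whole knockdown arm and 240 in the whole inhibitor arm. The stretch upstream of its start that holds 2 pairs of heat shock units (RefSeq promoter, GRCm38.p6, chr5:135887784-135887847, plus strand; matched units with their spacers in capitals) is shown because this gene rose most.
Hspb1: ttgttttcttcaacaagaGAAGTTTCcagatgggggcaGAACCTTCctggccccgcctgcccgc

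Hspb6, which encodes HSP20, was at 70.2, 55.8, 58.5, 41.8 and 37.8 in OSMI-1 libraries, against 76.1 (lowest), 81.0 (median) and 104 (highest) in vehicle libraries. No OSMI-1 library reached the lowest vehicle library (-0.71 ± 0.18, adjusted p = 0.0057). After knockdown Hspb6 ran over 149.6 to 212 in shOgt and 80.5 to 208 in shLuc libraries and was not called (0.24 ± 0.21, adjusted p = 0.42). Hspb8, which encodes HSP22 and works with the co-chaperone BAG3 to send misfolded proteins to autophagy, was at 68.4, 63.9, 41.3, 75.2 and 38.9 in OSMI-1 libraries, against 67.8 (lowest), 95.0 (median) and 121 (highest) in vehicle libraries. The groups overlapped in 2 OSMI-1 libraries (-0.71 ± 0.20, adjusted p = 0.011). After knockdown its 5 shOgt values were 137, 141, 131, 112 and 110.3, against 54.1 (lowest), 100.4 (median) and 118 (highest) in shLuc libraries (0.43 ± 0.19, adjusted p = 0.1), and it was not called. Its partner Bag3 was at 256, 259.5, 199, 192 and 199 in OSMI-1 libraries, against 246 (lowest), 279 (median) and 316 (highest) in vehicle libraries. Bag3 fell with overlap (-0.35 ± 0.11, adjusted p = 0.024), and this call was lost without OSMI-1 4, 5 or 6, without vehicle 2 or 4, or without the libraries set apart (adjusted p between 0.051 and 0.065). After knockdown Bag3 ran over 265 to 321 in shOgt and 252 to 379 in shLuc libraries (-0.20 ± 0.12, adjusted p = 0.23).

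**Figure D2:**
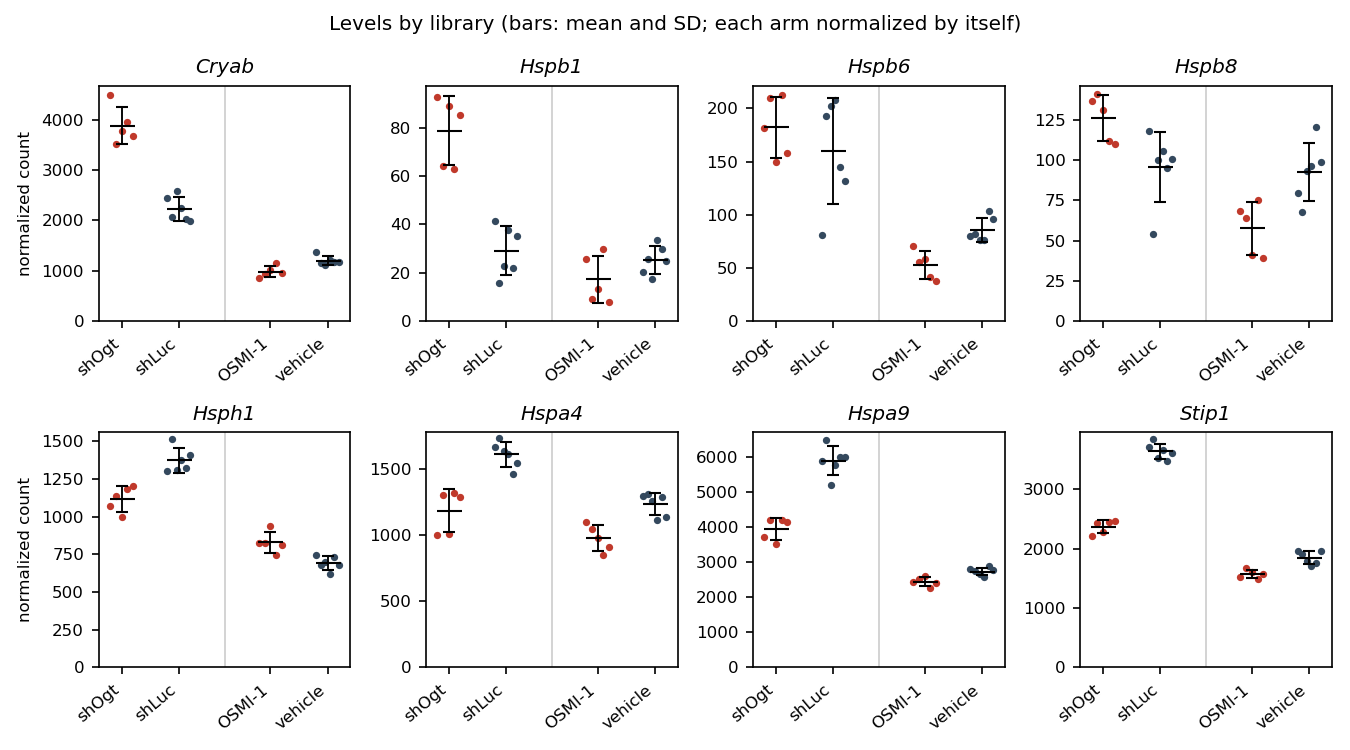
Deposited normalized counts of 8 genes by library (points; shOgt and OSMI-1 red, shLuc and vehicle dark), with the mean and SD of each group as bars and a vertical axis from 0; the arms were normalized separately. Cryab stands at 3883 ± 374 in shOgt and 2225 ± 243 in shLuc libraries, and Hsph1 is lower in shOgt than in shLuc but higher in OSMI-1 than in vehicle libraries.

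Among the HSP70 genes, 2 of 6 tested fell and none rose after knockdown, and 1 of 5 fell and none rose after OSMI-1. Of all genes tested, 16.4% fell after knockdown and 13.2% after OSMI-1. Hspa8 encodes HSC70, the constitutive cytosolic HSP70, and had the highest level per kilobase of the 31 genes. It was at 52807, 55975, 56241, 53117 and 49939 in shOgt libraries, against 60333 (lowest), 62098 (median) and 73090.2 (highest) in shLuc libraries. The groups did not overlap (-0.25 ± 0.06, adjusted p = 0.0026). After OSMI-1 Hspa8 differed little, at 24168 ± 1808 in OSMI-1 and 24237 ± 741 in vehicle libraries (-0.01 ± 0.06, adjusted p = 0.96). Hspa9 encodes mortalin, the HSP70 of the mitochondrial matrix. It was at 3705, 4188, 3512, 4199 and 4136 in shOgt libraries, against 5198 (lowest), 5929.7 (median) and 6479 (highest) in shLuc libraries, again with no overlap (-0.58 ± 0.07, adjusted p = 3e-06). In OSMI-1 libraries Hspa9 was at 2425, 2505, 2605, 2274 and 2395, against 2563 (lowest), 2752 (median) and 2880.3 (highest) in vehicle libraries. That difference just missed the threshold (-0.16 ± 0.06, adjusted p = 0.05003) and passed it with a pseudocount of 0.5, in DESeq2, and without OSMI-1 4 or vehicle 4.

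Hspa14 encodes an HSP70-like protein that works at the ribosome. It was at 501, 592, 559, 525 and 679 in OSMI-1 libraries, against 654 (lowest), 682 (median) and 745 (highest) in vehicle libraries. All OSMI-1 libraries but OSMI-1 6 lay below every vehicle library, and OSMI-1 6 lay inside their range (-0.28 ± 0.08, adjusted p = 0.015). That call was lost without the libraries set apart (adjusted p = 0.073). After knockdown Hspa14 was not called (-0.10 ± 0.07, adjusted p = 0.33). Hspa2, an HSP70 best known from the testis, ran over 421 to 473 in shOgt and 461 to 598 in shLuc libraries (-0.23 ± 0.10, adjusted p = 0.079), and over 179 to 256 in OSMI-1 and 185 to 236 in vehicle libraries (0.08 ± 0.12, adjusted p = 0.67). The atypical family member Hspa12a was barely measured, at 1.04 to 19.2 in shOgt and 1.04 to 18.9 in shLuc libraries (0.74 ± 0.72, adjusted p = 0.47), and with 74 reads in the whole inhibitor arm, where it ran over 0 to 10.3 in OSMI-1 and 5.44 to 17.9 in vehicle libraries. With no filter on low values it was called lower after OSMI-1 (-1.63 ± 0.53, adjusted p = 0.046), a value that rests on few reads.

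The stress-inducible HSP70 genes Hspa1a and Hspa1b, the classical readout of an active HSF1, stayed low. Hspa1a ran over 63.5 to 107 in shOgt and 28.9 to 90.7 in shLuc libraries, and over 24.1 to 38.3 in OSMI-1 and 12.3 to 26.1 in vehicle libraries. It was called in neither arm (0.56 ± 0.30, adjusted p = 0.17 after knockdown; 0.58 ± 0.28, adjusted p = 0.14 after OSMI-1). In each arm, all 5 shOgt or OSMI-1 libraries lay above the mean of the controls. Hspa1b drew 6 reads in the whole knockdown arm and 3 in the whole inhibitor arm. The genes are near-identical neighbours on chromosome 17, so how the counting shared reads between them is uncertain, and their 300-base RefSeq promoter windows (GRCm38.p6) match at 296 bases (98.7%). The stretches with a pair of heat shock units, in capitals, are shown because they are the same in both copies (Hspa1a at chr17:34972235-34972278, minus strand; Hspa1b at chr17:34959317-34959360, minus strand).
Hspa1a: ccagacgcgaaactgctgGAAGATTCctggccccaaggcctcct
Hspa1b: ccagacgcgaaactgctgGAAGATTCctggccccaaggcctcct

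The HSP110 genes, whose products are nucleotide exchange factors of HSP70, each followed a course of their own. Hspa4 (chromosome 11, 53259814 to 53300457, minus strand) fell in both arms. It was at 1005, 1305, 1011, 1321 and 1292 in shOgt libraries, against 1467 (lowest), 1631 (median) and 1736 (highest) in shLuc libraries (-0.45 ± 0.09, adjusted p = 0.00059). In the inhibitor arm it was at 1100.0, 1049, 982, 853 and 916 in OSMI-1 libraries, against 1120.5 (lowest), 1275 (median) and 1311 (highest) in vehicle libraries (-0.34 ± 0.08, adjusted p = 0.0021). Neither pair of groups overlapped. Its relative Hspa4l (chromosome 3, 40744495 to 40796103, plus strand) went the other way after knockdown, at 516, 528, 271, 488 and 496 in shOgt libraries, against 213 (lowest), 259.8 (median) and 317 (highest) in shLuc libraries. Hspa4l rose (0.79 ± 0.16, adjusted p = 0.00088), with shOgt 3, at 271, inside the shLuc range. After OSMI-1 it ran over 162 to 278 in OSMI-1 and 198 to 228 in vehicle libraries (-0.05 ± 0.13, adjusted p = 0.81).

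Hsph1, which encodes HSP105 and is itself a heat shock gene, moved in opposite directions in the arms. It was at 1069, 1138, 995, 1184 and 1199.6 in shOgt libraries, against 1302 (lowest), 1349 (median) and 1512 (highest) in shLuc libraries, with no overlap (-0.30 ± 0.08, adjusted p = 0.005). In OSMI-1 libraries it was at 824, 826, 940.3, 746 and 811, against 619.5 (lowest), 689.9 (median) and 746 (highest) in vehicle libraries, where the lowest OSMI-1 library only equalled the highest vehicle library to within 1 count (0.26 ± 0.08, adjusted p = 0.016). The call after OSMI-1 was lost without OSMI-1 4 (0.21 on the log2 scale, adjusted p = 0.054) and kept without any other single library. The element with 3 alternating heat shock units of this gene overlaps an annotated exon (GRCm38.p6, chr5:149636280-149636308, minus strand) and is shown, in capitals, because this is the only gene called in opposite directions that has a promoter in the RefSeq table.
Hsph1: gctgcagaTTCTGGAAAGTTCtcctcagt

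Of the J-domain proteins, which bring clients to HSP70 and spur its ATPase, 1 of 6 rose after knockdown and none was called after OSMI-1. The share of all genes tested that rose after knockdown was 15.4%. Dnajb4 was at 129, 124, 88.9, 156 and 147 in shOgt libraries, against 56.4 (lowest), 89.0 (median) and 105 (highest) in shLuc libraries. The groups overlapped only through shOgt 3 (0.62 ± 0.20, adjusted p = 0.024), and the call was lost without shOgt 1, 5 or 6 (adjusted p between 0.051 and 0.068). After OSMI-1 Dnajb4 was at 113 ± 23.2 in OSMI-1 and 127 ± 18.6 in vehicle libraries (-0.19 ± 0.15, adjusted p = 0.41). Dnajb1, which encodes HSP40, the usual partner of inducible HSP70 and a strong HSF1 target, was at 1146 ± 99.4 in shOgt and 1081 ± 69.5 in shLuc libraries (0.08 ± 0.08, adjusted p = 0.46). It was at 512 ± 43.5 in OSMI-1 and 491 ± 43.4 in vehicle libraries (0.06 ± 0.09, adjusted p = 0.67). Dnaja1 ran over 1944 to 3326 in shOgt and 1826 to 2865 in shLuc libraries (0.18 ± 0.12, adjusted p = 0.28), a difference that passed the threshold without shOgt 3 (0.31, adjusted p = 0.021). In both Dnaja1 and Dnaja2, the lowest shOgt and the lowest shLuc libraries were both number 3, which are among the libraries that stood apart. Dnaja2, whose product is a general partner of HSC70 (-0.04 and -0.03 in the knockdown and inhibitor arms), Dnaja4 (-0.20 and -0.05) and the aggregation suppressor Dnajb6 (0.17 and -0.05) were not called. Dnaja4 was low, between 6.38 and 59.6 normalized counts over all libraries.

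The HSP90 genes were called in neither arm. Hsp90ab1, the constitutive cytosolic HSP90, was at 20232 ± 685 in shOgt and 19759 ± 1226 in shLuc libraries (0.04 ± 0.05, adjusted p = 0.66), and at 10469 ± 606 in OSMI-1 and 10931 ± 747 in vehicle libraries (-0.06 ± 0.06, adjusted p = 0.52). Its inducible relative Hsp90aa1 was at 5607 ± 361 in shOgt and 5570.5 ± 585 in shLuc libraries (0.01 ± 0.07, adjusted p = 0.91). It was at 3430.5 ± 69.9 in OSMI-1 and 3495 ± 434 in vehicle libraries (-0.02 ± 0.07, adjusted p = 0.89). Trap1, the HSP90 of mitochondria, was at 3097 ± 228 in shOgt and 3395 ± 236 in shLuc libraries (-0.13 ± 0.07, adjusted p = 0.15). After OSMI-1 it was at 1197 ± 79.4, against 1059 ± 99.1 in vehicle libraries (0.18 ± 0.08, adjusted p = 0.087), and passed the threshold without vehicle 1 (0.22, adjusted p = 0.041).

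Stip1 encodes HOP, which ties HSP70 to HSP90 so that clients can pass between them, and lies on chromosome 19, 7020702 to 7039967, minus strand. It had the largest fall of the 31 genes after knockdown. Stip1 was at 2215, 2433, 2285, 2441 and 2455 in shOgt libraries, against 3468 (lowest), 3632 (median) and 3835 (highest) in shLuc libraries. The highest shOgt library lay far below the lowest shLuc library (-0.62 ± 0.06, adjusted p = 2.5e-07). In OSMI-1 libraries it was at 1527, 1676, 1612, 1496 and 1565, against 1702 (lowest), 1848 (median) and 1964 (highest) in vehicle libraries. The groups again did not overlap, with a smaller fall (-0.23 ± 0.06, adjusted p = 0.011) that lost its call without the libraries set apart (adjusted p = 0.057). The HSP90 ATPase activator Ahsa1 was not called in the knockdown arm (-0.11) or the inhibitor arm (-0.10). Nor was Chordc1, an HSP90 co-chaperone and heat shock gene (0.18 and 0.15).

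The mitochondrial chaperonin is built from HSP60 and its lid HSP10, encoded by Hspd1 and Hspe1. These genes lie back to back on chromosome 1, Hspd1 at chromosome 1, 55077835 to 55088243, minus strand and Hspe1 at chromosome 1, 55088132 to 55091307, plus strand, with first exons that overlap on opposite strands. Hspd1 fell in both arms. It was at 2786, 3190.1, 2989.8, 3377 and 3408 in shOgt libraries, against 3516 (lowest), 3848 (median) and 4164 (highest) in shLuc libraries (-0.29 ± 0.07, adjusted p = 0.0033). In OSMI-1 libraries Hspd1 was at 2466, 2422, 2234, 2674 and 2397, against 2723 (lowest), 2869 (median) and 3234 (highest) in vehicle libraries (-0.26 ± 0.06, adjusted p = 0.0041). Neither pair of groups overlapped. Hspe1 was called in neither arm, at 703 ± 76.5 in shOgt and 742 ± 106 in shLuc libraries (-0.07 ± 0.11, adjusted p = 0.65) and at 759 ± 217 in OSMI-1 and 752 ± 106 in vehicle libraries (-0.02 ± 0.14, adjusted p = 0.94). Whether reads were assigned by strand is not given in the sources used here. A stretch in the RefSeq promoter windows of both genes (GRCm38.p6, chr1:55088053-55088082, plus strand for Hspe1 and the reverse strand for Hspd1) lies upstream of Hspe1 and overlaps an annotated exon of Hspd1. It carries heat shock units, in capitals, and is shown because both windows hold it.
Hspd1: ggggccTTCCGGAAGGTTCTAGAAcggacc
Hspe1: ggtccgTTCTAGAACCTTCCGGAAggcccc

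Of the heat shock factors, Hsf1 fell after knockdown and Hsf2 was called in neither arm. Hsf1 (chromosome 15, 76477422 to 76501913, plus strand) was at 609, 583, 639, 438 and 441 in shOgt libraries, against 578 (lowest), 675 (median) and 769 (highest) in shLuc libraries. It fell with overlap (-0.34 ± 0.12, adjusted p = 0.032). The call was lost with no filter on low values, without shOgt 5 or 6, without shLuc 1, 2 or 3, and without the libraries set apart (adjusted p between 0.051 and 0.10). After OSMI-1 Hsf1 was at 271 ± 13.1 in OSMI-1 and 251 ± 30.8 in vehicle libraries (0.11 ± 0.10, adjusted p = 0.45). Hsf2, a related factor active in development, was at 105 ± 22.1 in shOgt and 84.1 ± 14.3 in shLuc libraries (0.31 ± 0.19, adjusted p = 0.23), and at 93.8 ± 13.9 in OSMI-1 and 113 ± 19.2 in vehicle libraries (-0.26 ± 0.15, adjusted p = 0.24).

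The fold changes of the arms were then compared gene by gene. In a joint limma fit, with the log2 fold change after knockdown minus that after OSMI-1 as the contrast, 12 of the 29 genes tested in both arms differed. Over all 11269 genes tested, 22.9% differed, 11.5% with the higher fold change after knockdown and 11.4% with the lower. The fold change was higher after knockdown for Hspb1 (2.14 ± 0.44, adjusted p = 0.00055), Hspb8 (1.14 ± 0.28, adjusted p = 0.0033), Cryab (1.09 ± 0.12, adjusted p = 1.4e-08), Hspb6 (0.96 ± 0.28, adjusted p = 0.014), Hspa4l (0.85 ± 0.21, adjusted p = 0.004) and Dnajb4 (0.81 ± 0.25, adjusted p = 0.02). These include all 4 small heat shock proteins. It was lower after knockdown for Hsph1 (-0.56 ± 0.10, adjusted p = 0.00016), Hsf1 (-0.46 ± 0.16, adjusted p = 0.032), Hspa9 (-0.41 ± 0.09, adjusted p = 0.00075), Stip1 (-0.39 ± 0.08, adjusted p = 0.00064), Trap1 (-0.31 ± 0.10, adjusted p = 0.025) and Hspa8 (-0.24 ± 0.08, adjusted p = 0.036). The differences of Hspa8, Hsf1 and Trap1 were lost when any of 10, 7 and 2 single libraries was left out, the highest adjusted p being 0.081, 0.075 and 0.055. That of Hspa8 was also lost with no filter on low values (adjusted p = 0.11) and that of Hsf1 without the libraries set apart (adjusted p = 0.078). Stip1 fell in both arms and fell further after knockdown. For Hspa4 (-0.11 ± 0.12, adjusted p = 0.53) and Hspd1 (-0.03 ± 0.09, adjusted p = 0.87), which also fell in both, no difference was called. The arms differ in time, 3 days against 24 h, and in the means of acting on OGT, and these cannot be told apart here. Of the 29 genes tested in both arms, 14 were called in neither, among them Hspa1a, Dnajb1, Hsp90aa1 and Chordc1, whose induction is typical of heat shock. The rest were called in at least 1 arm, in both directions. Hspb1 rose after knockdown, and Hsph1 fell after knockdown and rose after OSMI-1. Cryab rose after knockdown and fell after OSMI-1. Hspd1 and Stip1 fell in both arms, and Hspb8 and Bag3 fell after OSMI-1.

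**Figure D3:**
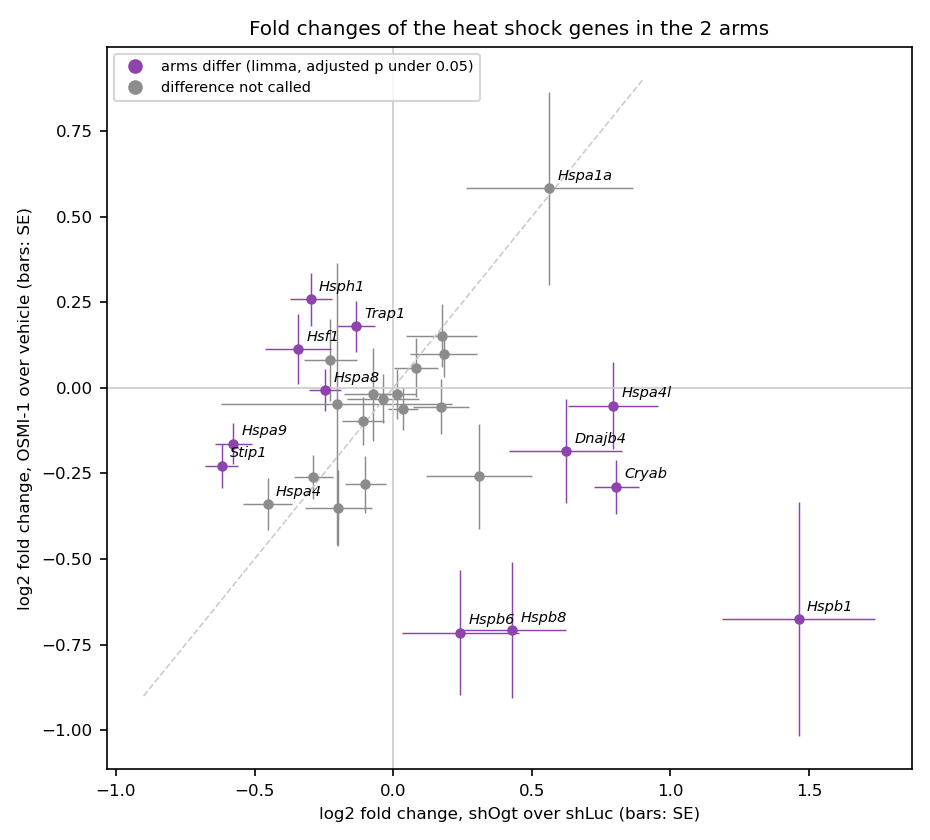
Log2 fold changes of the 29 genes tested in both arms, shOgt over shLuc on the horizontal and OSMI-1 over vehicle on the vertical axis, with standard errors as bars; purple points are the 12 genes whose fold changes differed between the arms and the dashed line marks equal values. Hspb1, Cryab, Hspb8 and Hspb6 lie below the line at the right, and Hsph1 lies above it at the left.

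Heat shock elements were searched for in the RefSeq promoters of GRCm38.p6, which hold 25 of the 31 genes. Hspa8, Hspa9, Hsp90aa1, Hsp90ab1, Cryab and Hsf1 are not in that table. An element of 3 alternating units (GAANNTTCNNGAA, on either strand) was found in 5 of the 25 (20.0%), against 0.662% of 27025 genes with a promoter window. These were Hsph1, Hspd1, Hspe1, Dnajb6 and Chordc1. A pair of units (GAANNTTC or TTCNNGAA, which the longer element contains) was in 14 of the 25 (56.0%), against 17.0% of all genes. Whether the elements bear on the calls was not tested, and each class holds few genes. The shares of all genes called are 15.4% higher and 16.4% lower after knockdown, and 11.6% higher and 13.2% lower after OSMI-1. Of the 5 genes with 3 units, none rose and 2 fell after knockdown, and 1 rose and 1 fell after OSMI-1. Of the 9 with a pair only, which include the untested Hspa1b, 2 rose and none fell after knockdown, and none rose and 3 fell after OSMI-1. Of the 11 with neither, 1 rose and 2 fell after knockdown, and none rose and 3 fell after OSMI-1, where Hspa12a was not tested. The elements of Dnajb6 (chr5:29735844-29735872, plus strand) and Chordc1 (chr9:18292260-18292288, plus strand) are shown, with units in capitals, beside that of the called genes above, since neither gene was called in either arm.
Dnajb6: agctccgaGAATCTTCCGGAAcgctagac
Chordc1: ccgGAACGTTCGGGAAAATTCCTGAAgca

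**Figure D4:**
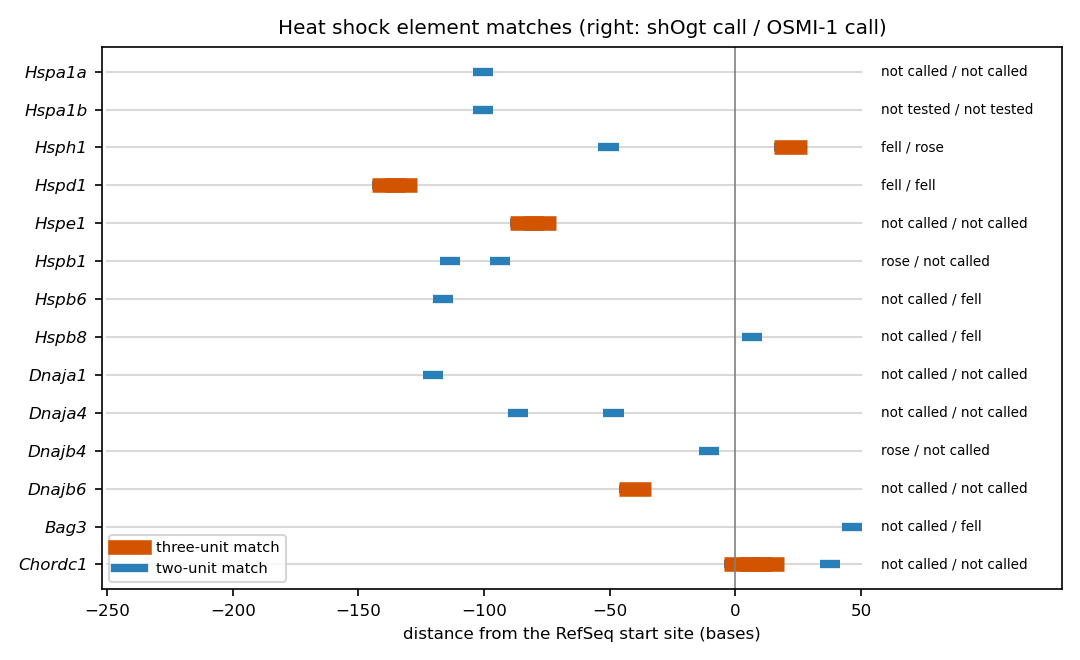
Positions of heat shock element matches in the promoter windows of the 14 genes that hold one, as distance in bases from the RefSeq start; orange bars are matches of 3 alternating units and blue bars pairs of units, with the calls after shOgt and after OSMI-1 written at the right. Matches lie on both sides of the start. Of the genes with an orange bar, Hsph1 fell after shOgt and rose after OSMI-1, and Hspd1 fell in both arms. Hspe1, Dnajb6 and Chordc1 were called in neither.

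Per kilobase of merged exon (GENCODE vM21), Hspa8 had the highest level of the 31 genes in both arms, at 12466 in shOgt and 14797 in shLuc libraries and at 5619 in OSMI-1 and 5635 in vehicle libraries (mean normalized count per kilobase). Hsp90ab1 came next, at 6746 in shOgt and 6588 in shLuc libraries. Cryab was at 2626 per kilobase in shOgt and 1504 in shLuc libraries, above both Stip1 (1122 and 1723) and Hsp90aa1 (1426 and 1417) in shOgt cells but below Stip1 in shLuc cells. Hspb1, Hspa4l, Hspa1a, Dnajb4, Dnaja4, Hsf2, Hspa12a and Hspa1b were the 8 lowest in shLuc libraries, all below 30 per kilobase.

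Further chaperone genes were taken from lists drawn up by function, with earlier results of these data known. The shares of all genes called lower, 16.4% after knockdown and 13.2% after OSMI-1, are the background for the counts of fallers. For risers the shares called higher are 15.4% after knockdown and 11.6% after OSMI-1. Of 20 tested HSP90 co-chaperones, 1 rose and 7 fell after knockdown (median log2 fold change -0.15, against 0.01 for all genes), and none rose and 6 fell after OSMI-1 (median -0.21, against 0.00). After knockdown the calls with the smallest p were Stub1, the ubiquitin ligase CHIP (4473 ± 379 in shOgt and 5997 ± 346 in shLuc libraries, -0.43 ± 0.07, adjusted p = 5.5e-05), the steroid receptor immunophilin Fkbp5 (57.8 ± 26.3 in shOgt and 133 ± 18.8 in shLuc libraries, -1.30 ± 0.26, adjusted p = 0.00068) and the phosphatase Ppp5c (2051 ± 107 in shOgt and 2518 ± 83.1 in shLuc libraries, -0.30 ± 0.06, adjusted p = 0.0011). After OSMI-1 they were Ptges3, which encodes p23 (558 ± 74.3 in OSMI-1 and 840.5 ± 29.4 in vehicle libraries, -0.60 ± 0.09, adjusted p = 1.3e-05), the AAA+ ATPase gene Ruvbl2 (776 ± 47.9 in OSMI-1 and 1002 ± 44.0 in vehicle libraries, -0.37 ± 0.07, adjusted p = 0.00036) and Nudc (1425 ± 79.0 in OSMI-1 and 1782 ± 193 in vehicle libraries, -0.32 ± 0.07, adjusted p = 0.0028). Of 14 genes of the cytosolic chaperonin TRiC and its partner prefoldin, 1 rose and 6 fell after knockdown (median -0.17), and none rose and 4 fell after OSMI-1 (median -0.12). The TRiC subunits Cct6a and Cct2 fell in both arms, Cct6a with log2 fold changes of -0.31 ± 0.07 in shOgt cells and -0.36 ± 0.06 in OSMI-1 cells, and Cct2 with -0.31 ± 0.07 in shOgt cells and -0.42 ± 0.07 in OSMI-1 cells. The prefoldin subunit Vbp1 fell after knockdown (-0.81 ± 0.23) and the TRiC subunit Tcp1 after OSMI-1 (-0.27 ± 0.07).

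The HSP70 co-factor and J-domain lists held calls in both directions. Among all genes tested, 15.4% were called higher and 16.4% lower after knockdown, and 11.6% and 13.2% after OSMI-1. The J-domain counts lie near these shares. Among 10 HSP70 co-factors, 1 rose after knockdown, the microsomal HSP70 family member Hspa13 (0.39 ± 0.12), and 1 fell, Bag4 (-1.19 ± 0.36). Of 9 tested after OSMI-1, St13, which encodes the HSP70-binding protein HIP (0.29 ± 0.07), and Sil1, a nucleotide exchange factor of the endoplasmic reticulum (0.31 ± 0.10), rose, and Bag2 fell (-0.38 ± 0.13). Of 30 other J-domain genes, 6 rose and 5 fell after knockdown, led by the mitochondrial membrane gene Dnajc11 (-0.45 ± 0.08), Dnajb5 (0.68 ± 0.14) and Dnajc30 (0.41 ± 0.09). Of 29 tested after OSMI-1, 4 rose and 3 fell, led by the histone co-chaperone Dnajc9 (-0.57 ± 0.07), Dnajc1 (0.41 ± 0.10) and Gak, which uncoats clathrin vesicles (0.32 ± 0.09). Among 9 mitochondrial chaperone partners, 1 rose and 3 fell after knockdown, the fallers being the protease Lonp1 (-0.57 ± 0.14), the J-domain gene Dnaja3 (-0.25 ± 0.07) and the protease Clpp (-0.24 ± 0.08). None of the 9 was called after OSMI-1. Dnaja3 and Dnajc19 stand in this list and are also counted among the other J-domain genes.

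Of 3 other small heat shock protein genes tested after knockdown, 2 rose, Hspb11, also known as the intraflagellar transport gene Ift25 (321 ± 32.6 in shOgt and 223 ± 31.3 in shLuc libraries, 0.53 ± 0.13, adjusted p = 0.0029), and Hspb2 (34.8 ± 7.71 in shOgt and 13.7 ± 8.87 in shLuc libraries, 1.45 ± 0.41, adjusted p = 0.0099), and none fell. Neither of the 2 tested after OSMI-1 was called. Hspb2 (chromosome 9, 50751078 to 50752354, minus strand) lies head to head with Cryab, and the annotated spans of the genes overlap on opposite strands. Since the use of strand in counting is not given, whether Hspb2 rose apart from Cryab was not tested. Of 10 genes linked to HSF1, 3 rose and 1 fell after knockdown. Hspbap1, which encodes a binding partner of HSP27 (0.91 ± 0.16), and Dedd2 (0.80 ± 0.16) were among the risers, and Fkbp4, the immunophilin FKBP52, fell (-0.29 ± 0.07). Fkbp4 is also counted among the HSP90 co-chaperones that fell. Of 9 tested after OSMI-1, 2 rose, among them the polyubiquitin gene Ubb (0.27 ± 0.07), and none fell.

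**Figure D5:**
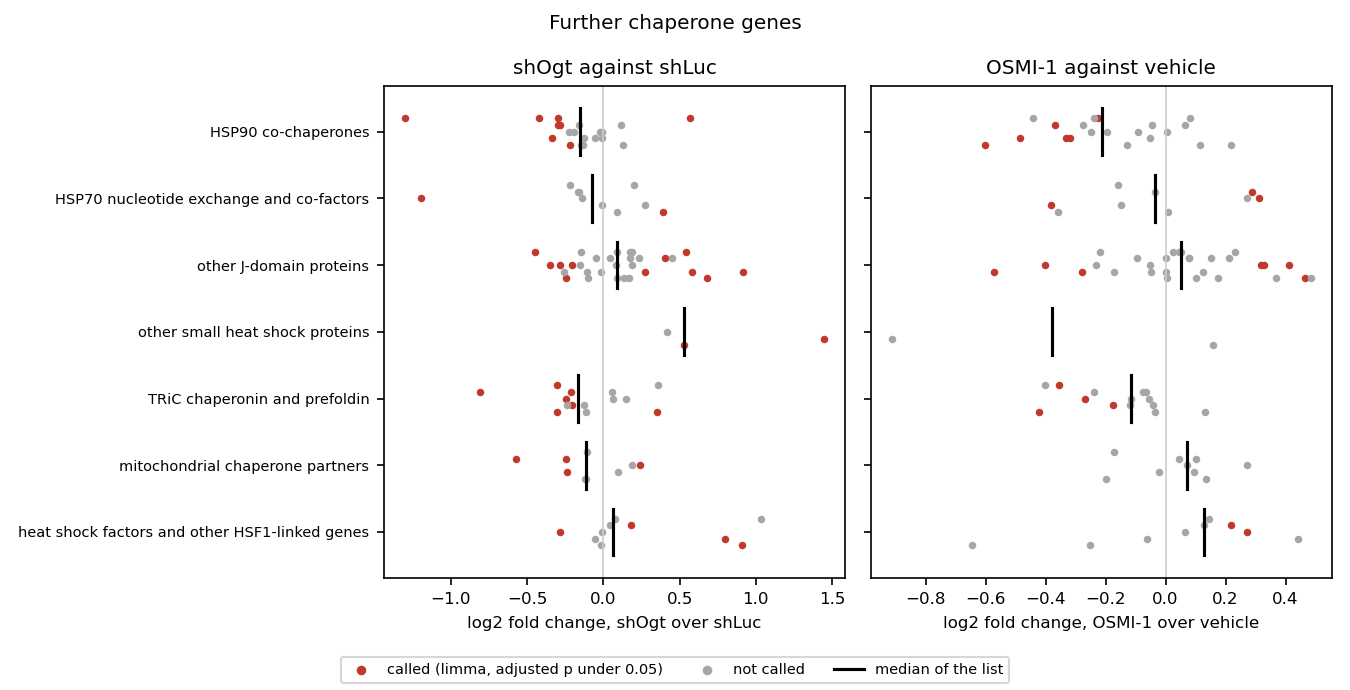
Log2 fold changes of further chaperone genes by list, shOgt over shLuc at the left and OSMI-1 over vehicle at the right; each point is 1 gene, red where called, and the black bar is the median of the list. The medians of the HSP90 co-chaperones and of TRiC with prefoldin lie left of 0 in both panels.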

How the data were processed

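Poly(A) RNA-seq of 22 libraries was used, grouped by their labels. Per the submitters' processing notes, the authors aligned with STAR, counted with RSEM and normalized with DESeq2 (versions not given in the sources used here). The notes name the human build hg38, although the deposited gene symbols are mouse, so coordinates here come from GENCODE vM21 (GRCm38) and RefSeq promoters (GRCm38.p6). The labels name a strand-specific kit and the design text Smart-Seq2, which was not settled. Per the file headers, each of the 2 deposited tables gives normalized counts (a signal: reads divided by DESeq2 size factors), the authors' log2 fold change with its error, a Wald statistic (a score) and a p-value with its adjusted p-value. The deposited log2 fold change runs vehicle over OSMI-1 in 1 table, and was turned round. Values were whole multiples of 1 step per library (100% within 0.001), which gave back the reads.

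The main test was limma 3.58.1 (R 4.3.3) with its mean-variance trend on the log2 of normalized count + 1, per arm and without covariates, after edgeR's filterByExpr (minimum count 10, minimum total 15), with Benjamini-Hochberg adjustment over all genes tested. The added 1 draws folds of weakly expressed genes toward 0, but not all came out smaller than in the authors' DESeq2 values. Hspa1a after knockdown (0.56, DESeq2 0.46) and Hspb1 after OSMI-1 (-0.68, DESeq2 -0.57) came out larger. Dnaja4 after knockdown came out smaller (-0.20, DESeq2 -0.27). The difference between arms came from 1 joint fit of the genes kept in both. Alternatives were edgeR 4.0.16 (quasi-likelihood) and DESeq2 1.42.0 on the recovered reads, other pseudocounts, no filter, TMM scaling, a replicate block and left-out libraries. No pair of libraries of the same group agreed within sampling noise (smallest chi-square per degree of freedom 5.77 and 3.72 in the knockdown and inhibitor arms). The procedure was checked on simulated counts.

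All 31 genes are named, with Ogt and up to 3 called genes with the smallest p from each further chaperone list and arm, except 1 that is not reported here. The genes, lists and alternatives were chosen with earlier results of these data known.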

Additional observations from a re-analysis of the deposited data

Results flagged for a closer look

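In 4 of 118 groups of libraries of the heat shock genes, a single library lay far from the rest by Dixon's criterion at the 95% level, fewer than the share that chance alone flags at that level. These were Hspa4l in shOgt 3, at 271 and lowest of its group, Hspa8 in shLuc 1, at 73090 and highest, Hsp90aa1 in shLuc 1, at 6738 and highest, and Hspb8 in shLuc 2, at 54.1 and lowest. Of these libraries, shOgt 3 and shLuc 1 also stood apart on principal components. Hspa4l and Hspa8 kept their calls after knockdown without those libraries.

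The log2 fold changes of 12 genes differed between the arms, with the value after knockdown minus that after OSMI-1 at 2.14 for Hspb1, 1.14 for Hspb8, 1.09 for Cryab, 0.96 for Hspb6, 0.85 for Hspa4l and 0.81 for Dnajb4, and at -0.56 for Hsph1, -0.46 for Hsf1, -0.41 for Hspa9, -0.39 for Stip1, -0.31 for Trap1 and -0.24 for Hspa8. Cryab and Hsph1 were called in both arms with opposite signs.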

How the results depend on the processing

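The counts of heat shock genes called after knockdown kept within 1.5 times their value under every alternative run. After OSMI-1, where 1 gene rose, the count was 0 with the replicate block, 0 without OSMI-1 4 and 2 without the libraries set apart, and 5 instead of 8 fell without the libraries set apart. Leaving out single libraries gave 3 to 5 risers and 6 to 7 fallers after knockdown, 0 to 2 risers and 7 to 8 fallers after OSMI-1, 9 to 12 genes that differed between the arms, 3208 to 3897 genes called after knockdown, 2428 to 2680 after OSMI-1, and -1.06 to -0.92 for Ogt after knockdown.

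Replicate numbers mostly did not pair libraries: same-numbered libraries deviated together weakly (correlations from -0.01 to 0.16 for the hairpins and from -0.10 to 0.05 for OSMI-1). The exception was number 3 of the hairpins, where shLuc 3 was the best match of shOgt 3 (0.16). Both lay at the same end of component 3 (-33.6 for shLuc 3 and -34.0 for shOgt 3). With the replicate block, 4 genes rose and 7 fell after knockdown, 8 fell after OSMI-1, and 11 differed between the arms, Hspa8 no longer among them (adjusted p = 0.078). Hsph1 lost its call after OSMI-1 with it (adjusted p = 0.053).

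Signs turned only for values not called. Without the libraries set apart, the sign turned for Hspe1 at 0.00485 and Dnaja2 at 0.0236 after knockdown, Hspa8 at 0.0397 and Hsp90aa1 at 0.0322 after OSMI-1, and Hspe1 at 0.119 and Dnaja2 at 0.031 in the difference. Without OSMI-1 4, the sign turned for Hspa4l at 0.0353, Hspe1 at 0.0421 and Dnaja2 at 0.0206 after OSMI-1, and Dnaja4 at 0.121, Chordc1 at -0.0356 and Ahsa1 at 0.0135 in the difference. With the replicate block, the sign turned for Dnaja4 at 0.00312 after knockdown, Hspe1 at 0.0138 after OSMI-1, and Hspa1a at 0.0162, Hspd1 at 0.00669, Dnaja4 at 0.182 and Ahsa1 at 0.0125 in the difference. In edgeR, the sign turned for Hspe1 at 0.000455 and Dnaja4 at 0.117 after OSMI-1. In DESeq2, the sign turned for Hspe1 at 0.0122 and Dnaja4 at 0.0869 after OSMI-1. With a pseudocount of 4, the sign turned for Hspa1a at 0.0196 in the difference. When single libraries were left out, log2 values after knockdown ran over both signs for Hsp90aa1 (-0.0221 to 0.0693), Dnaja2 (-0.122 to 0.0941) and Dnaja4 (-0.47 to 0.0455). After OSMI-1 they did so for Hspa8 (-0.0414 to 0.0278), Hspa4l (-0.158 to 0.0353), Hsp90aa1 (-0.0542 to 0.0395), Hspe1 (-0.136 to 0.0828), Dnaja2 (-0.0617 to 0.0206) and Dnaja4 (-0.325 to 0.204). In the difference between arms they did so for Hspa1a (-0.196 to 0.128), Hsp90aa1 (-0.0262 to 0.0877), Hspd1 (-0.0579 to 0.0163), Hspe1 (-0.154 to 0.0647), Dnaja2 (-0.0907 to 0.125), Dnaja4 (-0.423 to 0.121), Dnajb1 (-0.0318 to 0.0577), Chordc1 (-0.0718 to 0.0866) and Ahsa1 (-0.0723 to 0.0314). The causes were not tested. The difference between arms was not run in edgeR or DESeq2. Depth limits Hspa1b, Hspa12a, Dnaja4, Hspa1a and Hspb1 most.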
